A study of Caenorhabditis elegans with 123 samples.

Results

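The clec genes of Caenorhabditis elegans encode proteins with a C-type lectin-like domain, and 220 of them were followed here through early embryogenesis. The members were all genes that the platform annotation pairs with a probe set of 1 symbol made of clec- and a number, out of 17118 genes with such a probe set. A gene with several such probe sets (15 genes) was read by the one with the highest mean over all arrays, and 22 further clec probe sets that stand for several symbols were left out. The members lie on chromosomes I (31), II (47), III (17), IV (45), V (77) and X (3), by RefSeq WBcel235 names.

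The study hybridised total RNA of embryos to Affymetrix arrays. Embryos kept at 22 °C were taken 0, 23, 41, 53, 66, 83, 101, 122, 143 or 186 min past the 4-cell stage. The genotypes were mex-3(zu155) with skn-1(RNAi) (28 arrays, written mex-3/skn-1 below), pie-1(zu154) (27 arrays), pie-1(zu154) with pal-1(RNAi) (34 arrays, written pie-1/pal-1) and the wild-type strain N2 (34 arrays). Each of the 40 groups of genotype and time held 2 to 4 arrays. How many embryos went onto an array is not stated in those sources that were used.

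C-type lectin-like domains fold into a compact module that in many proteins binds sugars, and most worm proteins that carry one are predicted to be secreted or membrane bound. The family is known in the worm mainly for genes of the adult intestine that answer to bacteria and other pathogens. Some members act in other tissues, and the proteins of clec-87 and clec-88 were isolated from worms as chondroitin proteoglycans. Of the mutated genes, pie-1 keeps zygotic transcription off in the germline precursor, mex-3 restrains translation of the posterior homeobox gene pal-1, and skn-1 specifies the blastomere that makes endoderm and pharynx.

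All levels are on a log2 scale, as read from the range of the values (1.79 to 12.72). The early window was 0 to 41 min, the middle window 53 to 83 min and the late window 101 to 186 min, each as the mean of its group means. A probe set was called when limma gave a Benjamini-Hochberg adjusted p under 0.05 over 22548 probe sets and a difference of at least 1 on the log2 scale, which is 2-fold. A member was counted as switched on when it was called higher late than early in a genotype, and as lost when it was called lower. Nothing in the labels says that arrays of a group came from separate cultures, so that the p-values cover array-to-array spread, possibly technical.

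The targeted genes were read first, and some arrays stood apart from their labels. Early pie-1 averaged 3.52 ± 0.21 for pie-1 arrays (SD, n = 8), and 3.45 ± 0.18 for pie-1/pal-1 arrays (n = 11), against 7.69 ± 0.40 in N2 arrays (n = 10). Early mex-3 averaged 3.54 ± 0.28 in mex-3/skn-1 arrays (n = 8), against 8.03 ± 0.77 in N2 arrays (n = 10), although 1 late mex-3/skn-1 array measured 6.36. Early pal-1 in the pie-1/pal-1 genotype had a median of 5.55 and ranged from 4.95 to 12.21, against 7.53 to 9.08 in pie-1 arrays. A pie-1 array at 53 min, labelled without RNAi, measured 12.49. Late pal-1 had a median of 6.39 and ranged from 5.36 to 10.32 in arrays labelled pie-1/pal-1, against a median of 6.32 and a range of 4.57 to 7.81 in pie-1 arrays, so that the late level does not show the knockdown. A late pie-1/pal-1 array also measured 9.46 for mex-3. The skn-1 probe set was dim everywhere. The description files of pie-1/pal-1 replicate 5 at 122 min and mex-3/skn-1 replicate 5 at 186 min give 143 min, and leaving both out ended no clec call. Each scan day held arrays of 1 genotype, so scan day and genotype cannot be told apart. In N2, 9 of 10 early arrays were of 1 scan day and 10 of 12 late arrays of another. Only the other 1 early and 2 late N2 arrays shared a scan day. Scan day and time are thus nearly confounded in N2, which bears on its changes and on each comparison with them. The 3' minus 5' difference between GAPDH control probe sets averaged 1.48 ± 0.39 in mex-3/skn-1 arrays (SD, n = 28), 1.19 ± 0.38 for pie-1 arrays (n = 27), and 1.40 ± 0.30 for pie-1/pal-1 arrays (n = 34), against 0.77 ± 0.27 in N2 arrays (n = 34).

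Most clec genes stayed near the floor of the array in the early embryo. Only 6 of the 220 members (2.73%) reached a group mean of 5 in any of the 40 groups, against 6868 of 22548 probe sets (30.5%). A group mean of 7 was reached by 5 members (2.27%), against 3001 probe sets (13.3%). In 199 members no group mean reached 4, and the other 15 peaked between 4 and 5. The 6 brighter members were clec-12, clec-87, clec-88, clec-91, clec-196 and clec-266, and no other member was called in any of the 19 comparisons made. The 22 shared clec probe sets peaked at 4.18 or lower and were called in none of them.

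**Figure D1:**
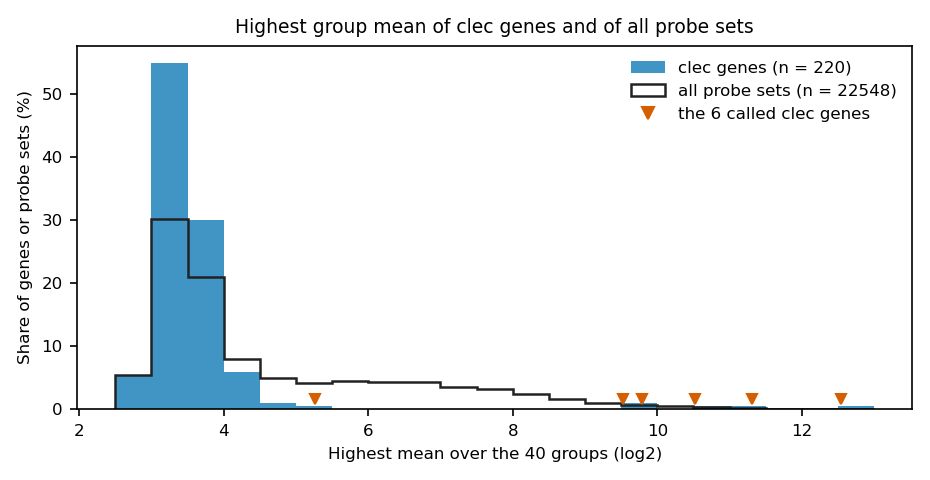
Share of the 220 clec genes (filled bars) and of all 22548 probe sets (outline) by the highest of 40 group means (log2). Most clec genes peak below 4, and the 6 called genes (triangles) peak at 5 or above.

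The 214 members called in no comparison had a median highest group mean of 3.42 and a maximum of 4.67, reached by clec-63 in N2 at 66 min. Their group means spanned a median of 0.59 over the 40 groups. Among them clec-157 spanned the most, 1.63. It averaged 4.61 ± 0.17 in N2 arrays at 101 min, against 3.29 ± 0.11 in N2 arrays at 0 min (SD, n = 3 each). Its late minus early difference was 0.64 ± 0.10 in N2 (SE), with an adjusted p under the threshold but below the fold minimum.

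In N2, 3 members were switched on and 3 were lost. The late minus early difference was 5.06 ± 0.17 for clec-196 (33.3-fold), 5.03 ± 0.20 for clec-266 (32.8-fold) and 1.32 ± 0.17 for clec-12 (2.50-fold). It was -4.27 ± 0.18 for clec-91 (19.3-fold lower), -4.05 ± 0.26 for clec-87 (16.5-fold lower) and -3.98 ± 0.20 for clec-88 (15.8-fold lower), each ± SE over 12 late and 10 early arrays. The early N2 means of clec-196 (3.48 ± 0.24) and clec-266 (3.88 ± 0.59; SD, n = 10 each) lay close to the array medians of 3.24 to 3.41, so the folds of both may understate the change. By limma, the adjusted p was 3.16e-44 for clec-196, 6.3e-39 for clec-266, 4.55e-11 for clec-12, 5.03e-38 for clec-91, 3.67e-25 for clec-87 and 1.45e-32 for clec-88. These are 6 of 220 members, while of the whole array 6.7% was called higher and 8.24% lower, so the share of clec genes that changed was below the background. The median difference was 0.03 over the members and 0.02 over all probe sets.

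The same 6 members were called in mex-3/skn-1 (2.73% of members) and pie-1/pal-1, and 5 of them in pie-1 (2.27%), each in the direction seen in N2. The background was 4.11% higher and 5.81% lower in mex-3/skn-1, 5.46% and 8.28% for pie-1, and 6.8% and 6.13% for pie-1/pal-1.

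The gene clec-196, on chromosome IV, was induced in N2 by about as much as clec-266, the 2 differing by less than their SE. Late levels ran from 5.48 to 9.83 with a median of 8.28 in mex-3/skn-1 arrays (n = 12), from 8.01 to 9.35 with a median of 8.83 in pie-1 arrays (n = 12), from 8.28 to 9.84 with a median of 9.12 in pie-1/pal-1 arrays (n = 13) and from 7.40 to 9.58 with a median of 8.81 in N2 arrays (n = 12). Early levels ran from 3.07 to 3.60 in mex-3/skn-1, from 3.59 to 4.07 in pie-1, from 3.01 to 5.42 in pie-1/pal-1 and from 3.23 to 3.98 in N2 arrays. Early and late arrays did not overlap in any genotype. The late minus early difference was 4.54 ± 0.19 for mex-3/skn-1, 5.06 ± 0.18 for pie-1, and 5.14 ± 0.17 for pie-1/pal-1, and the change in no mutant differed from that in N2 by a call.

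The genotypes differed in when clec-196 rose. At 53 min it measured 7.07, 6.55 and 6.65 in pie-1/pal-1 arrays, 5.49 and 4.29 in pie-1 arrays, 4.02 and 4.11 in mex-3/skn-1 arrays, and 5.37, 5.01, 4.71 and 5.03 in N2 arrays. All 3 pie-1/pal-1 arrays were above all N2 and pie-1 arrays, and both mex-3/skn-1 arrays were below all others. At 66 min it measured 3.91 and 3.71 in mex-3/skn-1 arrays, 7.95, 8.19, 7.82 and 7.63 in pie-1/pal-1 arrays, and 5.96, 5.95, 6.03 and 6.42 in N2 arrays. Those 3 genotypes did not overlap, whereas the range of the pie-1 arrays at 66 min overlapped those of pie-1/pal-1 and N2. A rise of at least 3 over the level at 0 min (8-fold), kept at all later times, was first seen at 53 min in pie-1/pal-1, at 83 min in pie-1 and in N2, and at 122 min in mex-3/skn-1.

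Over the middle window, clec-196 was 1.57 ± 0.17 higher in pie-1/pal-1 than in N2 (limma adjusted p = 2.03e-12) and 1.36 ± 0.20 higher in pie-1/pal-1 than in pie-1 (adjusted p = 2.2e-06). It was -1.69 ± 0.19 in mex-3/skn-1 against N2 (adjusted p = 4.7e-12) and 0.21 ± 0.19 in pie-1 against N2, which was not called. These middle-window comparisons were chosen after the time courses had been seen. In the middle window 0.395% of the array was called higher and 4.19% lower in pie-1/pal-1 against N2, 0.133% higher and 0.0222% lower in pie-1/pal-1 against pie-1, 0.634% higher and 3.48% lower in mex-3/skn-1 against N2, and 0.0887% higher and 3.68% lower in pie-1 against N2. No other member was called in the 2 comparisons of pie-1/pal-1. In pie-1 against N2, 0 members were called by limma, although 63 had an unadjusted p under 0.05. After adjustment 39 still had a p under 0.05, and these missed a call by the fold minimum alone. The share of all probe sets under those p limits was not computed, so the counts are not read as a trait of clec genes.

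The pie-1/pal-1 arrays fall into replicates 3 and 4, all of 1 scan day, and replicates 1, 2 and 5. The middle-window difference of clec-196 from N2 was 1.64 with replicates 3 and 4 alone and 1.48 with replicates 1, 2 and 5 alone. Against pie-1 it was 1.43 and 1.27. The pie-1 arrays at 66 min were uneven, with clec-196 at 5.55, 8.36 and 6.61. With the GAPDH difference as a term, the difference from N2 was 1.30 in pie-1/pal-1 and -1.98 in mex-3/skn-1.

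Tissue markers also moved in the middle window. For mex-3/skn-1 against N2, pha-4 and ceh-51 (2 of 4 MS and pharynx markers), end-1 (1 of 4 endoderm markers) and ceh-36 (1 of 4 neuron markers) were called lower. The summed unlogged level of the MS and pharynx markers ran from 32.7 to 65.5 in mex-3/skn-1 arrays, against 71.6 to 307 in N2 arrays, and that of the endoderm markers from 42.4 to 84.4, against 81.0 to 182. For pie-1/pal-1 against N2, the neuron marker hlh-14 was called higher, while the germline markers pgl-1, nos-2 and meg-1 and the muscle marker hnd-1 were called lower. For pie-1 against N2, 1 of 4 neuron markers was called higher and 2 of 4 germline markers lower. For pie-1/pal-1 against pie-1 no marker was called. The part of these tissues in the clec-196 level was not tested.

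By 186 min the levels of clec-196 met. Before that, at 143 min, clec-196 was lower in all mex-3/skn-1 than in all N2 arrays (mean difference -0.63). At 186 min it averaged 9.53 ± 0.22 in mex-3/skn-1 (SD, n = 4), 9.31 ± 0.04 for pie-1 (n = 3), and 9.32 ± 0.46 for pie-1/pal-1 (n = 4), against 9.20 ± 0.37 in N2 arrays (n = 3). Arrays of every mutant overlapped those of N2 at that time. The order of the means at 186 min therefore lies within the spread.

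**Figure D2:**
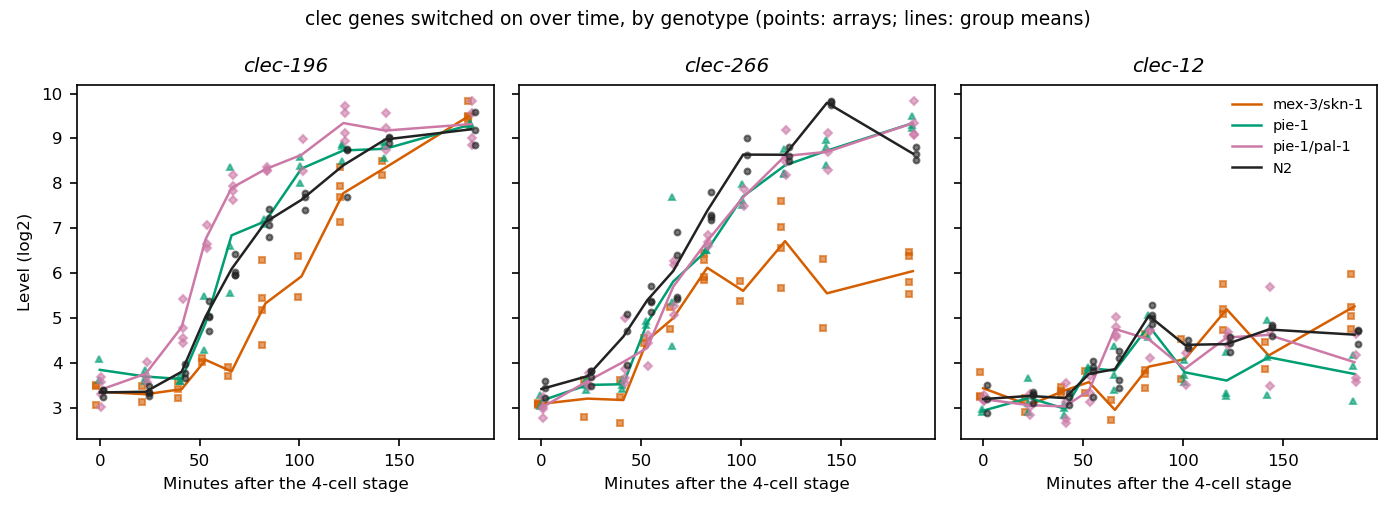
Levels (log2) of clec-196, clec-266 and clec-12 against minutes after the 4-cell stage, with a point for each array and a line through the group means of mex-3/skn-1, pie-1, pie-1/pal-1 and N2. clec-196 rises first in pie-1/pal-1 and last in mex-3/skn-1 and meets at 186 min, whereas clec-266 stays lower in mex-3/skn-1.

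The gene clec-266, on the X chromosome, reached a lower level in mex-3/skn-1 embryos. Late levels ran from 4.78 to 7.60 with a median of 6.07 in mex-3/skn-1 arrays (n = 12), from 7.52 to 9.49 with a median of 8.58 in pie-1 arrays (n = 12), from 7.50 to 9.83 with a median of 8.69 in pie-1/pal-1 arrays (n = 13) and from 8.28 to 9.83 with a median of 8.74 in N2 arrays (n = 12). Every late mex-3/skn-1 array was below every late N2 array. Arrays of both pie-1 genotypes overlapped with those of N2 over the window as a whole, but at single times they mostly did not. At 101 min all were below all N2 arrays (mean difference -0.93 for pie-1, -0.95 for pie-1/pal-1), as at 143 min (-1.07 and -1.09), and at 186 min all were above them (0.68 for each). Only at 122 min did they overlap. All N2 arrays at 101 and 143 min are replicates named by letters, and all at 122 and 186 min are named by numbers. At the only time when N2 has both kinds, clec-266 averaged 6.66 in the 2 lettered and 5.44 in the 2 numbered N2 arrays. The differences of the pie-1 genotypes from N2 at single times therefore cannot be told apart from the kind of N2 replicate.

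The late difference of clec-266 from N2 was -2.96 ± 0.20 in mex-3/skn-1 (7.77-fold lower, limma adjusted p = 1.41e-23), where the background was 0.151% higher and 6.12% lower. It was the only member called there. The difference was -0.39 ± 0.19 for pie-1, and -0.35 ± 0.19 for pie-1/pal-1, which were not called. Set against pie-1/pal-1, a comparison free of N2 arrays, the late difference of mex-3/skn-1 was -2.61 ± 0.20 (limma adjusted p = 1.5e-20).

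The gene was still switched on in mex-3/skn-1, but by less. Its late minus early difference was 2.82 ± 0.22 for mex-3/skn-1 (7.08-fold), 5.15 ± 0.22 for pie-1, and 5.05 ± 0.20 for pie-1/pal-1, against 5.03 ± 0.20 in N2. The change in mex-3/skn-1 differed from that in N2 by -2.21 ± 0.30 (adjusted p = 7.75e-09), where the background was 1.47% higher and 2.23% lower. In mex-3/skn-1 the group mean was 6.12 ± 0.29 at 83 min (SD, n = 4) and 6.04 ± 0.45 at 186 min (n = 4), against 7.38 ± 0.29 (n = 4) and 8.66 ± 0.15 (n = 3) in N2. All mex-3/skn-1 arrays were below all N2 arrays at 9 of the 10 times, with an overlap at 23 min. Both late calls and the difference in change remained with each array left out in turn and in all other settings tried that include them.

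Over the middle window clec-266 was -1.07 ± 0.22 in mex-3/skn-1 against N2 (adjusted p = 8.19e-05). This call ended without mex-3/skn-1 replicate 3 at 66 min (-0.99) and without N2 replicate I at 66 min (-0.97). It also ended under quantile normalization (-0.71) and after centring on brighter probe sets (-0.76). At 66 min, the 1 time at which N2 has both lettered and numbered replicates, clec-266 averaged 6.66 in the 2 lettered and 5.44 in the 2 numbered N2 arrays, so the N2 level depends on the replicates used.

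Late mex-3/skn-1 arrays also differed from N2 arrays in markers of several tissues. Of 4 germline markers, nos-2 was called lower in that comparison, while 0 of 4 body muscle and 0 of 4 epidermis markers were called. Over time within the mutant, clec-266 rose by 2.82. There, 0 of 4 endoderm and 0 of 4 MS and pharynx markers were called late against early, and 1 of 4 neuron markers was called higher. The rest of this paragraph gives the late comparison. Of the 4 endoderm markers, 3 were called lower late in mex-3/skn-1 than in N2 (end-1, elt-2 and elt-7), with end-3 not called. Their summed unlogged level ran from 40.9 to 80.0 in late mex-3/skn-1, from 122 to 235 in pie-1 and from 112 to 270 in pie-1/pal-1 arrays, against 130 to 197 in N2 arrays. Of the 4 MS and pharynx markers, pha-4 and ceh-51 were called lower in mex-3/skn-1, and the sum ran from 34.3 to 44.1 in mex-3/skn-1, 146 to 306 in pie-1, 135 to 379 in pie-1/pal-1 and 139 to 349 in N2 arrays. Of the 4 neuron markers, 3 were called lower in mex-3/skn-1 too. The part of these tissues in the clec-266 level was not tested, and in whole embryos fewer cells of a type and less RNA per cell cannot be told apart.

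**Figure D3:**
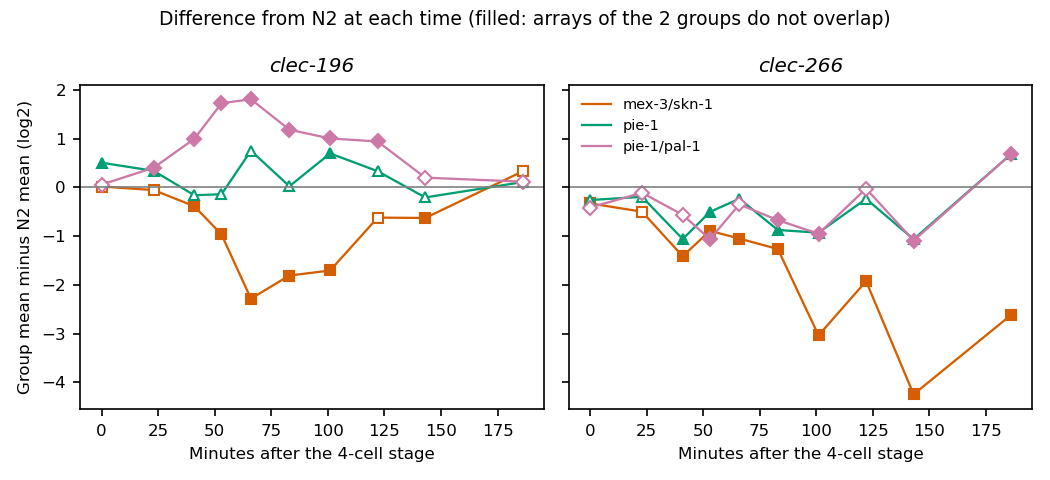
Difference of group means from N2 (log2) at each time for clec-196 and clec-266, with filled symbols where no array of the mutant overlaps an N2 array. For clec-196 the pie-1/pal-1 line peaks at 66 min and the mex-3/skn-1 line is lowest there, and both return to near 0 by 186 min; for clec-266 the mex-3/skn-1 line stays below 0 at all times and is lowest at 143 min.

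The gene clec-12, on chromosome I, rose little. Late levels ran from 3.63 to 5.98 with a median of 4.90 in mex-3/skn-1 arrays (n = 12), from 3.15 to 4.96 with a median of 3.83 in pie-1 (n = 12), from 3.47 to 5.69 with a median of 4.40 in pie-1/pal-1 (n = 13) and from 4.23 to 4.84 with a median of 4.54 in N2 arrays (n = 12). Early levels lay between 2.66 and 3.80 in all genotypes, so that late and early arrays overlapped in all mutants and not in N2. The late minus early difference was 1.38 ± 0.18 for mex-3/skn-1 (limma adjusted p = 5.52e-10) and 1.18 ± 0.16 for pie-1/pal-1 (limma adjusted p = 1.32e-09). It was 0.77 ± 0.18 in pie-1, short of the fold minimum. With scan day as a block the N2 difference was 0.92, which is no longer a call. In N2 the highest mean was 5.05 ± 0.18 at 83 min (SD, n = 4).

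The 3 members that were lost started high. At 0 min, clec-87 (chromosome I) averaged 12.02 ± 0.16 in mex-3/skn-1 (SD, n = 3), 12.31 ± 0.03 for pie-1 (n = 2), and 12.20 ± 0.09 for pie-1/pal-1 (n = 4), against 12.05 ± 0.17 in N2 arrays (n = 3). At that time clec-88 (chromosome II) averaged 10.89 ± 0.07, 11.11 ± 0.05 and 11.17 ± 0.12 in the same mutants, against 11.31 ± 0.17 in N2. In turn clec-91 (chromosome I) averaged 9.45 ± 0.65, 10.26 ± 0.04 and 10.28 ± 0.28, against 9.59 ± 0.33 in N2. In the early window none of these genes, and 0 of the 220 members, was called by limma in any mutant against N2. Unadjusted, 64 members for mex-3/skn-1, 35 for pie-1, and 63 for pie-1/pal-1 had a p under 0.05, all with differences under 2-fold. After adjustment 44, 15 and 49 still did, and these missed a call by the fold minimum alone. The share of all probe sets under those p limits, without the fold minimum, was not computed. The counts are therefore not read as a trait of clec genes. The early background was 0.368% higher and 6.82% lower in mex-3/skn-1, 0.191% and 2.37% for pie-1, and 0.137% and 3.78% for pie-1/pal-1.

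Most of the decline came after 53 min. At 53 min clec-87 averaged 12.21 ± 0.05 in mex-3/skn-1 (SD, n = 2), 11.86 ± 0.34 for pie-1 (n = 2), and 12.02 ± 0.06 for pie-1/pal-1 (n = 3), against 11.77 ± 0.09 in N2 arrays (n = 4). Smaller changes came before. In N2, clec-91 averaged 10.33 ± 0.08 at 41 min, against 9.59 ± 0.33 at 0 min (SD, n = 3 each), with no overlap of arrays. In mex-3/skn-1, clec-88 averaged 10.36 ± 0.17 at 53 min (n = 2), against 10.89 ± 0.07 at 0 min (n = 3), again with no overlap. These changes were not tested. A lasting drop of clec-87 of at least 3 below the 0 min mean (8-fold) was first seen at 83 min in pie-1/pal-1, at 101 min in pie-1, and at 122 min in mex-3/skn-1 and in N2. For clec-88 it was first seen at 101 min in pie-1 and pie-1/pal-1, against 122 min in mex-3/skn-1 and N2. For clec-91 it came at 101 min in pie-1 and pie-1/pal-1 and at 143 min in mex-3/skn-1, against 122 min in N2.

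**Figure D4:**
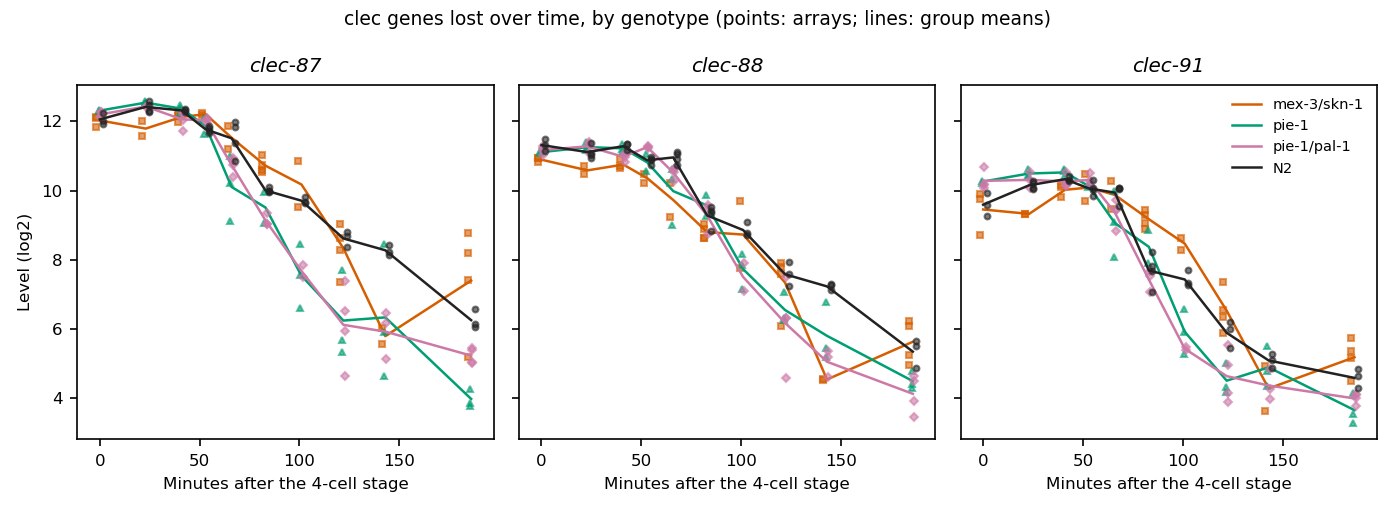
Levels (log2) of clec-87, clec-88 and clec-91 against minutes after the 4-cell stage, with a point for each array and a line through the group means of mex-3/skn-1, pie-1, pie-1/pal-1 and N2. All 3 genes fall mainly after 53 min, further in pie-1 and pie-1/pal-1 than in N2; the mex-3/skn-1 arrays at 143 min lie below most of those at 186 min.

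The loss of clec-87 went further in the pie-1 genotypes. Late levels ran from 3.79 to 8.46 with a median of 5.79 in pie-1 arrays (n = 12), from 4.64 to 7.85 with a median of 5.95 in pie-1/pal-1 arrays (n = 13) and from 5.20 to 10.84 with a median of 8.25 in mex-3/skn-1 arrays (n = 12), against 6.05 to 9.82 with a median of 8.40 in N2 arrays (n = 12). At 186 min it measured 3.79, 4.28 and 3.88 in pie-1 arrays and 5.03, 5.04, 5.46 and 5.41 in pie-1/pal-1 arrays, against 6.57, 6.15 and 6.05 in N2 arrays. At that time the 3 genotypes did not overlap. The mex-3/skn-1 arrays were spread widely at 186 min, at 8.20, 8.79, 7.41 and 5.20.

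The late difference of clec-87 from N2 was -2.19 ± 0.25 for pie-1 (4.56-fold lower, limma adjusted p = 1.53e-11), and it was -1.97 ± 0.25 for pie-1/pal-1 (3.93-fold lower, adjusted p = 6.69e-10). In mex-3/skn-1 it was -0.29 ± 0.26 and was not called. That window value joins opposite differences, -2.48 at 143 min (2 mex-3/skn-1 arrays) and 1.14 at 186 min. The late minus early difference was -6.38 ± 0.28 for pie-1, and -5.99 ± 0.26 for pie-1/pal-1, which differed from that of N2 by -2.33 ± 0.38 (adjusted p = 7.8e-06) for pie-1 and -1.94 ± 0.37 (adjusted p = 7.72e-05) for pie-1/pal-1. In mex-3/skn-1 it was -4.05 ± 0.29, which differed from N2 by -0.01 ± 0.39. The early level was near the highest value in the table (12.72), and the pie-1 level at 186 min was near the array floor, and whether either end limits these differences was not tested.

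The genes clec-88 and clec-91 moved in the same direction by less. Late clec-88 ran from 4.31 to 8.18 with a median of 6.29 in pie-1 arrays (n = 12) and from 3.46 to 7.91 with a median of 5.19 in pie-1/pal-1 arrays (n = 13), against 4.88 to 9.08 with a median of 7.29 in N2 arrays (n = 12). Its late difference from N2 was -1.11 ± 0.19 for pie-1 (limma adjusted p = 1.26e-06), and -1.54 ± 0.19 for pie-1/pal-1 (limma adjusted p = 2.13e-10). The corresponding values of clec-91 were -1.01 ± 0.17 (limma adjusted p = 9.02e-07) for pie-1 and -1.14 ± 0.17 (limma adjusted p = 5.91e-08) for pie-1/pal-1. Late clec-91 ran from 3.29 to 6.57 with a median of 4.58 in pie-1 arrays (n = 12) and from 3.77 to 5.55 with a median of 4.16 in pie-1/pal-1 arrays (n = 13), against 4.29 to 7.71 with a median of 5.37 in N2 arrays (n = 12). For both genes the groups overlapped over the window as a whole. In mex-3/skn-1 the late clec-88 difference from N2 was -0.69 ± 0.19 (limma adjusted p = 0.00248), short of the fold minimum. By the other clec-88 probe set it was -0.87, also not called. At 143 min that difference was -2.69 by the brighter probe set, and at 186 min it was 0.28. For clec-91 the late mex-3/skn-1 difference from N2 was 0.37 ± 0.17, which was not called.

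These 3 genes were the only members called late against N2 in either pie-1 genotype. The background was 0.071% higher and 2.89% lower in pie-1, and 0.271% higher and 2.06% lower in pie-1/pal-1. Both comparisons use the same N2 arrays. The pie-1 calls of clec-88 and clec-91 lie close to the fold minimum. They ended under quantile normalization (-0.77 and -0.66) and after centring on brighter probe sets (-0.73 and -0.63). With the GAPDH difference as a term both fell just short of the minimum (-0.99 for clec-88). The pie-1 call of clec-91 also ended, at -0.99 to -0.93, without any 1 of 12 arrays. These were pie-1 replicate 4 at 101 min, replicates 2 and 4 at 122 min, replicates 2 and 3 at 143 min and replicates 2 and 3 at 186 min, and N2 replicate H at 101 min, replicates 1 and 4 at 122 min, replicate L at 143 min and replicate 4 at 186 min. The clec-91 call in pie-1/pal-1 ended under quantile normalization (-0.92), after that centring (-0.89) and when late was taken as 143 and 186 min alone (-0.66), whereas both late calls of clec-87 remained in every setting tried. The probe sets averaging 5 or more had a median late difference from N2 of -0.50 for mex-3/skn-1, -0.34 for pie-1, and -0.24 for pie-1/pal-1, and the clec values above are not corrected for that shift.

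For clec-88 the late minus early change differed from that of N2 by -1.07 ± 0.29 for pie-1 (limma adjusted p = 0.0146), and by -1.44 ± 0.28 for pie-1/pal-1 (limma adjusted p = 9.33e-05). For clec-91 these differences were -1.41 ± 0.26 for pie-1 (limma adjusted p = 7.03e-05) and -1.40 ± 0.25 for pie-1/pal-1 (limma adjusted p = 1.96e-05). The background of these comparisons was 0.315% higher and 0.572% lower in pie-1 and 0.67% higher and 0.497% lower in pie-1/pal-1. The pie-1 call of clec-88 ended without pie-1 replicate 4 at 101 min or replicate 3 at 143 min, with differences just short of the minimum (-0.99 for the second). It also ended under quantile normalization (-0.88) and after centring on brighter probe sets (-0.92).

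**Figure D5:**
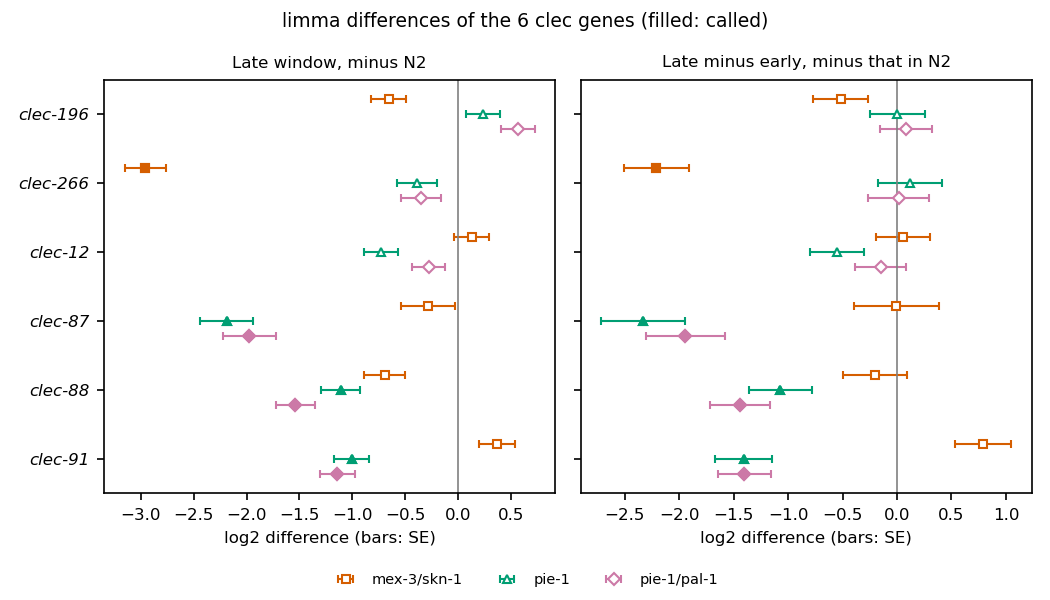
limma log2 differences with SE bars for the 6 called clec genes, at left each mutant minus N2 in the late window and at right the change over time (late minus early) in a mutant minus that in N2, with filled symbols for calls. Calls are of clec-266 in mex-3/skn-1, and of clec-87, clec-88 and clec-91 in pie-1 and pie-1/pal-1. At left some symbols that are not called also lie below 0. Among them are clec-12 in pie-1 (-0.73), and clec-88 (-0.69) and clec-196 (-0.66) in mex-3/skn-1.

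The second probe sets of clec-87 and clec-88 were read as a check on the first. For clec-87 the late difference from N2 by its other probe set was -2.10 for pie-1, and -2.07 for pie-1/pal-1, with both called. For clec-88 it was -1.30 and -1.11, also called. The other clec-88 probe set did not pass the fold minimum for the difference in change (-0.95 for pie-1, and -0.73 for pie-1/pal-1). The probe sets also disagreed early, where clec-87 in mex-3/skn-1 against N2 was -1.14 by the other probe set, a call, and -0.28 by the brighter one. In the middle window the other clec-88 probe set was called lower in mex-3/skn-1 (-1.18), and the brighter one was not (-0.74).

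Between mutants, 4 members were called late when mex-3/skn-1 was set against pie-1/pal-1, where the background was 0.639% higher and 2.31% lower. The genes clec-87 (1.69 ± 0.26, limma adjusted p = 9.88e-08) and clec-91 (1.51 ± 0.17, adjusted p = 7.13e-12) were higher in mex-3/skn-1. Lower were clec-266, given above, and clec-196 (-1.22 ± 0.17, adjusted p = 3.84e-09). The call of clec-196 ended after centring on brighter probe sets (-0.87) and when late was taken as 143 and 186 min alone (-0.31), and in that window clec-91 (0.55) was not called either. In pie-1/pal-1 against pie-1, 0 members were called late by limma, with 25 at an unadjusted and 2 at an adjusted p under 0.05. The share of all probe sets at those p limits was not computed. The values of the 220 members lay between -0.43 and 0.45. The background there was 0.031% higher and 0.00887% lower.

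The germline markers pgl-1, pgl-3, nos-2 and meg-1 also fell from the early to the late window. In pie-1 arrays their summed unlogged level averaged 367 early, 62.1 in the middle window and 48.3 late. In N2 arrays it averaged 596, 174 and 92.2, so most of the unlogged fall came before the late window. On the log2 scale clec-87 averaged 12.42, 10.44 and 6.03 in pie-1 arrays and 12.28, 11.09 and 8.21 in N2 arrays. The marker sums are unlogged and the clec-87 values are log2, so these values do not show which fell first. The timing was not compared by a test. All 4 markers were called lower late than early in mex-3/skn-1 and in N2, and all but pgl-3 in both pie-1 genotypes. Late, nos-2 was called lower than in N2 in each mutant. The summed unlogged level of the 4 ran from 40.1 to 59.3 in late pie-1 arrays, from 41.0 to 58.8 in late pie-1/pal-1 arrays and from 45.6 to 207 in late mex-3/skn-1 arrays, against 58.2 to 134 in late N2 arrays. Early, pgl-1, pgl-3 and nos-2 were called lower in both pie-1 genotypes than in N2. Late, 3 of 4 body muscle markers (unc-120, hlh-1 and hnd-1) were called lower in both pie-1 genotypes than in N2. Of the 4 epidermis markers, elt-1 and lin-26 were called lower late for pie-1 and elt-1 alone for pie-1/pal-1, both against N2. Their summed unlogged level ran from 114 to 239.7 in late pie-1 arrays and from 114 to 318 in late pie-1/pal-1 arrays, against 235 to 562 in late N2 arrays. Of the 4 neuron markers, unc-130 was called lower late in both pie-1 genotypes. The part of any of these tissues in the clec levels was not tested.

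Over the 40 group means, the 3 genes that were lost followed each other closely. Pearson's r was 0.98 between clec-87 and clec-91, 0.97 between clec-87 and clec-88, and 0.97 between clec-88 and clec-91. Between clec-196 and clec-266 it was 0.90. These points share libraries and a common trend in time, and the values are descriptions. The genes of other symbols most like clec-196 were kynu-1, which encodes kynureninase (r = 0.97), tag-267 (0.96) and lect-2 (0.96). Most like clec-266 were the linker histone gene his-24 (0.97), zeel-1 (0.97) and C40A11.4 (0.96). Most like clec-91 were F21F3.6 (0.98), clec-87 and EEED8.3 (0.98). EEED8.3 (0.98) also came second for clec-87, and F21F3.6 (0.97) for clec-88. The genes most like clec-12 were less close: fah-1, which encodes fumarylacetoacetase (0.84), the glypican gene lon-2 (0.83) and clp-6, a calpain gene (0.81).

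The 6 called members are not a chromosomal cluster. Among the 5 protein-coding genes on each side in the RefSeq WBcel235 order, clec-12 has 1 clec neighbour, clec-11, whose highest group mean was 3.32. The other 5 called members have no clec neighbour within that distance. The probe sets of clec-87, clec-88, clec-91 and clec-266 are of a kind that may read more than 1 transcript, while those of clec-12 and clec-196 are not so marked.

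Other families of carbohydrate-binding or antibacterial proteins were also mostly quiet. Of 12 galectin genes, 2 reached a group mean of 5. Galectins bind sugars through another fold, and lec-12 was the single galectin called in N2 (-1.06 ± 0.13, late minus early). None of 16 lysozyme genes reached 5 and 0 were called in any comparison. Of 18 saposin-like genes 1 reached 5, spp-10, with a late minus early difference of 6.35 ± 0.18 in mex-3/skn-1 and 4.78 ± 0.16 in N2. Late, spp-10 was -4.34 ± 0.16 for pie-1, and -5.34 ± 0.16 for pie-1/pal-1 against N2.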

How the data were processed

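The deposited table gives 1 value per probe set and array. Its values were taken as log2, since the authors' table spans 1.79 to 12.72 and array medians lie between 3.24 and 3.41; the summarisation and normalization are not given in the sources used here, and no further scaling was applied. Of 22625 probe sets 77 controls were left out. Of the 22548 tested, 20766 had 1 symbol, 887 several and 895 none. Arrays were grouped by labelled genotype and time, and 40 group means were fitted with limma 3.58.1 in R 4.3.3 (83 residual degrees of freedom). There were 15 planned comparisons and 4 added after the time courses had been seen. The members and lists were chosen with earlier results of these data known. Named were all called members, every member with a group mean of at least 7, the 3 genes most like each of 6 members, and up to 3 called genes per related family. The fit was also run on simulated independent normal values, with known shifts in the late pie-1/pal-1 arrays. Shifts of 1.5, 2 and 3 were called in 50 of 50 probe sets each, and shifts of 0.5 in 0 of 50. The simulation held no batch or replicate structure and no shift near the minimum of 1, so it says nothing of calls close to that minimum. Scan days and times come from the array description files deposited for 97 arrays. The number of arrays limits the precision.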

Additional observations from a re-analysis of the deposited data

Results flagged for a closer look

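The late minus early change differed between a mutant and N2 in 7 cases, each by a test of the difference itself. The difference was -2.21 for clec-266, with mex-3/skn-1. For pie-1 it was -2.33 (clec-87), -1.07 (clec-88) and -1.41 (clec-91). For pie-1/pal-1 it was -1.94 (clec-87), -1.44 (clec-88) and -1.40 (clec-91). All 7 use the same N2 arrays.

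In 72 groups of 4 arrays tested over the 6 called members, an array stood far from its group in 2, where chance gives about 1 in 20. clec-88 measured 6.08 in mex-3/skn-1 replicate 2 at 122 min, against 7.60 to 7.89 in the other 3 arrays. clec-91 measured 9.57 in N2 replicate I at 66 min, against 10.04 to 10.08 in the others.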

How the results depend on the processing

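Counts of called members were recomputed in 195 cases under other settings and moved by over 1.5 times in 14, and no value of a single member reversed in 474 such cases. In pie-1 against N2 late the count was 1, not 3, under quantile normalization, centring on brighter probe sets and the GAPDH term. Centring on brighter probe sets gave 1 in mex-3/skn-1 against N2 early (clec-55), 1 in pie-1 against N2 in the middle window (clec-227), and 1, not 2, in mex-3/skn-1 against N2 in the middle window, as did quantile normalization. With narrow windows (0 and 23 min, 143 and 186 min) the count was 2 in mex-3/skn-1 against N2 late, 2, not 4, for late mex-3/skn-1 set against pie-1/pal-1, and 1, not 3, for the change of pie-1 against that of N2. At times with lettered N2 replicates the count was 4, not 1, in mex-3/skn-1 against N2 late. The members called lower there were clec-87, clec-88, clec-196 and clec-266, and clec-88 was also called with narrow windows. At times with numbered N2 replicates the count was 2, not 1, for the change of mex-3/skn-1. It was 1, not 3, for that of pie-1/pal-1, where clec-87 (-1.77) and clec-91 (-1.08) were not called. At those times the late clec-88 difference for pie-1 (-0.94) and the late clec-91 difference for pie-1/pal-1 (-0.92) were not called, and with narrow windows the late clec-91 difference for pie-1 was -0.57. The change of clec-88 in pie-1 against that in N2 also lost its call at lettered (-1.15), numbered (-1.08) and narrow (-1.11) times. With pie-1/pal-1 replicates 3 and 4 alone, 1 member (clec-88) was called against pie-1 late. Leaving out 1 array moved the count by over 1.5 times in 1 comparison, mex-3/skn-1 against N2 in the middle window, where it lay between 1 and 2.

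Same-numbered arrays deviated from their group means with a median r of 0.04 (mex-3/skn-1), 0.09 (pie-1), 0.23 (pie-1/pal-1) and 0.02 (N2). For pairs of other number and other time this median was -0.01, -0.03, -0.07 and -0.02, by the same order of genotypes. Same-numbered pie-1/pal-1 arrays thus tended to deviate together, with a wide spread (122 pairs, r from -0.20 to 0.63). The main fit treats them as independent. With a replicate block the count in pie-1 against N2 late was 2, with clec-91 at -0.98, and the counts of the other comparisons were those given. Scan day as a block could not be fitted for pie-1, where 1 array has a scan day. The cause of these shifts was not tested. Most members lie near the array floor, where differences are poorly measured.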
